A study of Mus musculus with 6 samples.

Results

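The genes examined here encode integrin chains of regulatory T cells (Tregs), the Foxp3+ CD4+ T cells that restrain immune responses. They were chosen by name as 10 alpha and beta integrin genes, namely Itgae, Itgb7, Itga4, Itgb1, Itgal, Itgb2, Itgav, Itga6, Itgb3 and Itga1. All 10 were found in the count table, which holds 26 integrin chain genes among 49315 genes. Expression was compared between Tregs of skin and of the skin-draining lymph nodes (SDLNs).

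Integrins are cell surface receptors made of 1 alpha and 1 beta chain, and both chains are needed for a receptor to reach the surface. T cells use them to stop on vessel walls, to enter tissue and to hold on to epithelium or matrix. The chains are shared, so that a change in the mRNA of one chain can bear on several receptors. In T cells αLβ2 (LFA-1) binds ICAM proteins, α4β1 binds VCAM-1, α4β7 binds the gut vessel protein MAdCAM-1 and αEβ7 binds E-cadherin on epithelium.

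Both groups came from Foxp3-GFP reporter mice at postnatal day 9, with no treatment given in the labels, and each group held 3 samples. In these mice the fluorescent protein is made wherever the Foxp3 locus is active, and per the study's methods tissue of 3 animals was pooled into each sample, CD45+ cells were enriched on magnetic beads and live CD45+ CD4+ Foxp3-EGFP+ cells were sorted. Skin was digested with enzymes. The tissue field of GEO gives skin even for lymph node samples, so groups follow the sample titles, and libraries are named by the letters A to C of the count table, which nothing links to the numbers in the titles. Wherever 3 values are given for a tissue, they follow the order A, B, C. By the methods the samples of a group are separate pools, but whether skin and SDLN samples came from the same animals is not stated.

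The skin libraries were shallower and more uneven than the SDLN libraries. Totals were 3748669 to 11741784 counts in skin Tregs and 47243498 to 116158706 in SDLN Tregs. The floor is set at 3 counts, which is 0.255 to 0.800 CPM (counts-per-million, scaled to each library's total) in skin and 0.0258 to 0.0635 CPM in SDLN. Because reads carry no molecular identifiers, floors cover counting error only. Of 3649 genes averaging 30 to 100 CPM in SDLN, 28.7% were at or under the floor in all skin libraries. Against the sort, Foxp3 had 0, 330 and 1 counts in skin, and Cd4 had 0, 1861 and 2. Of 12 T cell and Treg markers, 8, 12 and 10 were over the floor in skin, and their summed level was 5250 to 8598 CPM in skin against 10515 to 10782 CPM in SDLN. In edgeR 1 of the 12 was higher in skin, Ctla4 (1099.55 ± 272 against 485 ± 119 CPM), and 0 in SDLN. Of all genes tested 1.04% were higher in skin and 45.3% in SDLN. The groups did not overlap for 8 markers lower in skin and 1 higher, where 53.6% and 2.39% of all genes tested did so. The median log2 fold change was -0.86 over the 12 and -2.21 over all genes tested. Lck, a kinase of T cell receptor signalling with the highest SDLN level of the list, averaged 737 ± 395 CPM in skin against 2236 ± 778 CPM in SDLN and did not pass (adjusted p 0.159 in edgeR). Myeloid markers summed to 34722 to 60966 CPM in skin and 443 to 779 CPM in SDLN, although the gate on CD4 and Foxp3-EGFP should remove most myeloid cells and platelets. Their part in the results was not tested, and in bulk samples fewer cells of a type and less RNA per cell cannot be told apart.

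Across the integrin chains, 2 of the 10 genes passed the test, both with higher expression in SDLN Tregs. They were Itgal, the alpha chain of LFA-1, and Itgb3, a partner of αV. The test was edgeR's quasi-likelihood test on counts across all genes, with Benjamini-Hochberg adjustment and a threshold of 0.05. No chain was higher in skin, where the same test called 141 of 13572 genes tested (1.04%), and DESeq2 likewise called 0 of the 9 chains it could test there. At an unadjusted p under 0.05 in edgeR there were 0 chains higher in skin, against 201 of the 13572 genes tested. There were 3 chains higher in SDLN, a count with no share of all genes at that threshold beside it, so it is not read further. Among all genes tested, 6142 were higher in SDLN (45.3%), so that in this fit the 2 of 10 chains were a smaller share than the background. This gap was not tested and depended on the fit. Without skin library B, 5 of 10 chains and 7787 of 15927 genes were higher in SDLN. With 10 or more counts required everywhere, 1 of 5 chains and 9 of 1396 genes were. The median log2 fold change, skin over SDLN, was -0.19 over the 10 chains and -2.21 over all genes tested. Under DESeq2 size factors, which shifted the median by 1.49 among genes detected in every library, the latter median was -0.88. The log2 fold change of every chain was higher under that scaling too, as for Itgae (1.19) and Itgb7 (1.35). The values -0.19 and -0.88 are thus not comparable.

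All 10 were over the floor in every SDLN library. In skin, 5, 9 and 6 were over the floor. Dropout was common in these libraries, which held 2911, 5317 and 4540 genes at 1 CPM or more against 12397 to 13002 in SDLN, and 79.0, 50.3 and 57.0% of genes averaging 30 to 100 CPM in SDLN were at the floor. Itgae, Itgb7, Itgb1, Itgal and Itgav were over it in all skin libraries, Itgb3 in none, and Itga4, Itgb2, Itga6 and Itga1 in some. Itgb3 passed the filter on low counts through the SDLN libraries alone, and the other 4 through these with 1 or 2 skin libraries. Of the 5878 tested genes at the floor in every skin library, 5801 were called higher in SDLN, so for a gene of that kind, Itgb3 included, the call was nearly fixed by the filter and gives no support particular to the gene. For 3 chains, Itga4, Itgal and Itgb3, every skin library lay below every SDLN library, and for 0 chains did every skin library lie above. Over all genes tested, 53.6% lay wholly below and 2.39% wholly above.

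**Figure D1:**
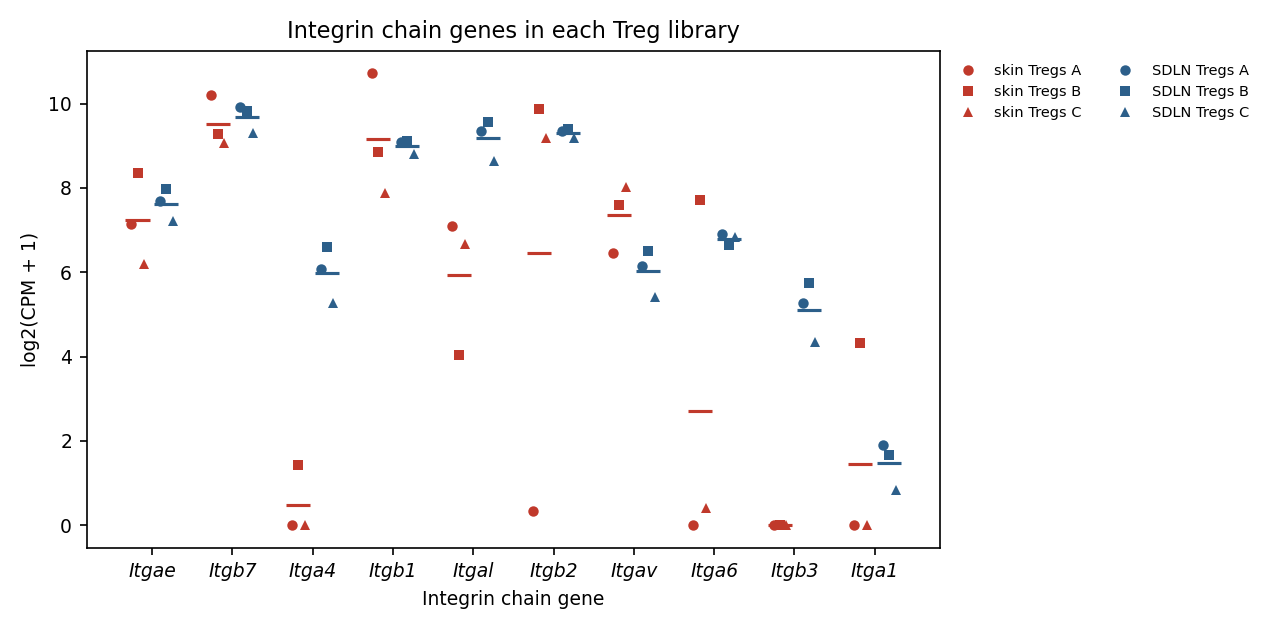
Expression of the 10 integrin chain genes in each library, as log2(CPM + 1), with 1 point per library and a bar at the mean of the log values in each group (3 libraries each). The skin points (red) spread more widely than the SDLN points (blue) for Itgb2, Itga6, Itga1 and Itgal, and all sit at 0 for Itgb3.

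The αE and β7 chains make the receptor that holds T cells at E-cadherin bearing epithelium. Both transcripts were present in all 6 libraries. Itgae (ENSMUSG00000005947, chr11:73090583-73147446, + strand, GRCm38) was at 141.4, 328.1 and 72.6 CPM in skin. It was at 204.3, 250.3 and 147.9 CPM in SDLN. The groups overlapped, with both the highest and the lowest value in skin. The mean was 181 ± 132 CPM for skin Tregs against 201 ± 51.3 CPM for SDLN Tregs (mean ± SD of 3 libraries here and throughout), and the log2 fold change was -0.17 (SE 0.86, adjusted p 0.956 in edgeR). Its sign turned without skin library C (0.017), so no direction can be given.

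Itgb7, the chain shared by αEβ7 and α4β7, had the highest mean level per length of the 10 chains in both tissues. Itgb7 (ENSMUSG00000001281, chr15:102215995-102231944, - strand) was at 1187, 617.5 and 538.6 CPM in skin. In SDLN Tregs it was at 961.0, 908.2 and 626.6 CPM. Skin library A stood above all SDLN libraries and skin libraries B and C below all of them. Means were 781 ± 354 and 832 ± 180 CPM (log2 fold change -0.21, SE 0.32, adjusted p 0.786 in edgeR). The SE was the smallest among the 10 chains. Under DESeq2 size factors the log2 fold change was 1.35 (adjusted p 0.0524), below the shift of 1.49 that this scaling gave to all genes over the floor.

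The α4 chain pairs with β7 or β1 and supports entry into gut and inflamed tissue. Itga4 (ENSMUSG00000027009, chr2:79255426-79333123, + strand) had 0, 20 and 0 counts in skin. At the lowest SDLN level, 142, 444 and 342 counts would have been found at the depths of these libraries. In CPM it was at 0, 1.70 and 0 in skin and at 66.1, 96.1 and 37.8 in SDLN. The groups did not overlap, and only skin library B was over the floor. Means were 0.568 ± 0.983 and 66.7 ± 29.1 CPM. The log2 fold change was -6.75 (SE 2.51). Its unadjusted p was 0.0381 and its adjusted p 0.0800 in edgeR, so Itga4 did not pass. It passed in DESeq2 and limma voom. It also passed without skin library B (adjusted p 0.00520), but both remaining skin libraries hold 0 counts, so that call was nearly fixed by the filter. At the floor in 2 or 3 skin libraries, as Itga4 was, were 66.2% of genes that averaged 30 to 100 CPM in SDLN. Some of its exon bases overlap the antisense gene Cerkl, and the strand setting of the counting is not given in the sources used here.

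Itga4 and Itgb7 encode the 2 chains of 1 receptor, and their detection in skin differed. Their promoters are therefore shown side by side, as 230 bases from 250 to 21 bases before the RefSeq start on build GRCm38.p6, on the strand of the gene and 5′ to 3′. Capitals mark the ETS core, GGAA on either strand (TTCC on the strand shown). The windows are chr15:102231956-102232185 (- strand) for Itgb7 and chr2:79255176-79255405 (+ strand) for Itga4.
Itgb7: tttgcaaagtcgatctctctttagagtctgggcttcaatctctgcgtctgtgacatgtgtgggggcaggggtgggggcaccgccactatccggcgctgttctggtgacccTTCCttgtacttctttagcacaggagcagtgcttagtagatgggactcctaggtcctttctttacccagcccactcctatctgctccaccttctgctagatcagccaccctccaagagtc
Itga4: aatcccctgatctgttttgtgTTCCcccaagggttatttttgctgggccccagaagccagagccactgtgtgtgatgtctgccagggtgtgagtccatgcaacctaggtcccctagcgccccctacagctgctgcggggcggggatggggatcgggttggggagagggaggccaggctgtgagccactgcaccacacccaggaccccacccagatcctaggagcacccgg
Each window holds 1 ETS core, and 91.9% of 32851 promoter windows of the same length hold at least 1, with both strands searched and overlaps between motifs allowed. The Itga4 window also holds 1 RUNX motif, which is TGTGGT or otherwise TGCGGT and is found in 17.3% of all windows. It holds 1 GC box as well, with the letters GGGCGG, found in 29.8% of windows. The Itgb7 window has 0 of these last 2 motifs. Such matches describe letters only. RefSeq promoters were matched for 5 of the 10 chains, the others being Itgb1, Itgav and Itga1.

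The β1 chain, partner of α4, α6, α1 and αV, carries most matrix receptors of T cells. Itgb1 (ENSMUSG00000025809, chr8:128685654-128733200, + strand) was at 1685, 463.9 and 235.1 CPM in skin. In SDLN it was at 539.9, 552.0 and 443.8 CPM. Skin library A was above every SDLN library and skin library C below every one. The means of 795 ± 779 and 512 ± 59.3 CPM gave a log2 fold change of 0.35 (SE 0.59, adjusted p 0.805 in edgeR). Without skin library A the sign turned to -0.57, as it did in limma voom (-0.15).

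LFA-1, the αLβ2 receptor that binds ICAM proteins on vessels and antigen presenting cells, showed its alpha chain lower in skin. Itgal (ENSMUSG00000030830, chr7:127296260-127335138, + strand) was at 136.8, 15.4 and 101.4 CPM in skin. It reached 656.7, 754.5 and 395.3 CPM in SDLN. Every skin value was under every SDLN value, and skin library B, the deepest skin library, was the lowest. Counts in skin were 513, 181 and 916, well over the floor. Means were 84.6 ± 62.4 and 602 ± 186 CPM, a ratio of means of 7.12. The log2 fold change was -2.90 (SE 0.89, adjusted p 0.0412 in edgeR). This call depended on the libraries kept. It was lost without skin library A (0.0569) and without each SDLN library in turn (0.127, 0.144 and 0.0674), and kept without skin library B or skin library C (0.0261 and 0.0483). Under DESeq2 size factors the log2 fold change was -1.26 (adjusted p 0.424), and the direction was the same in all 14 alternatives.

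Itgb2, which pairs with αL in lymphocytes and with αM and αX in myeloid cells, differed mostly among skin libraries. Itgb2 (ENSMUSG00000000290, chr10:77530252-77565708, + strand) had 1, 11001 and 5270 counts in skin. As CPM these were 0.3, 936.9 and 583.4. In SDLN the values were 653.3, 669.2 and 585.2 CPM. Skin library A held nearly none, skin library B was above all SDLN libraries and skin library C just below them. Means were 507 ± 473 and 636 ± 44.6 CPM (log2 fold change -0.16, SE 1.88, adjusted p 0.983 in edgeR). Without skin library A the log2 fold change was 0.25. In that library 29.5% of the 485 genes averaging 300 to 1000 CPM in SDLN were at the floor. The myeloid marker sum was highest in the same library, at 60966 CPM, and 15 of the 18 myeloid markers were over the floor there.

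For the LFA-1 pair the ratio of alpha to beta chain was lower than in SDLN in skin libraries B and C, but not in skin library A. Per kb of merged exon length, Itgal over Itgb2 was 0.00764 in skin library B and 0.0808 in skin library C, and was not computed in skin library A, where Itgb2 was at the floor. In SDLN it was 0.467, 0.524 and 0.314. The ratios of skin libraries B and C thus lay below the SDLN ratios. Skin library A held 513 counts of Itgal and 1 of Itgb2, so its ratio would lie above those of SDLN. No direction holds for all skin libraries. For Itgae over Itgb7 the ratios were 0.0720, 0.321 and 0.0815 in skin and 0.129, 0.167 and 0.143 in SDLN. The skin ratios of this pair lay on both sides of the SDLN ratios. Such ratios are of mRNA within a library and carry no test.

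The αV chain, whose receptors bind matrix proteins and, with β8, latent TGF-β, had the highest ratio of skin to SDLN means (2.67) among the 5 chains detected in every library, and it did not pass the test. Itgav (ENSMUSG00000027087, chr2:83724397-83806916, + strand) was at 87.5, 191.8 and 257.8 CPM in skin. SDLN had 70.5, 89.2 and 41.3 CPM. The groups overlapped by a narrow margin, as skin library A lay just under SDLN library B. Means were 179 ± 85.9 and 67.0 ± 24.1 CPM, and at a log2 fold change of 1.56 (SE 1.04) edgeR gave an adjusted p of 0.349. It was positive in all 14 alternatives, from 0.84 without skin library C to 2.99 under DESeq2 size factors, and passed in 0 of them (adjusted p 0.0736 to 0.753). Myeloid marker sums were higher in skin as well, and part of the Itgav exons overlaps the antisense gene Gm13684.

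Its partner β3 was detected in SDLN Tregs only. Itgb3 (ENSMUSG00000020689, chr11:104608000-104670476, + strand) had 0 counts in each skin library. SDLN had 4366, 3804 and 914 counts, or 37.6, 52.3 and 19.3 CPM. Every SDLN library was far over its floor, and no skin library held a single read. The SDLN mean was 36.4 ± 16.5 CPM, at least 45.5-fold higher than in skin, taking 3 counts in the shallowest skin library as the limit. The adjusted p was 0.00432 in edgeR. Itgb3 was called in 13 of 13 alternatives that could test it. With 0 counts in each skin library these calls were nearly fixed in advance as well, and add no support. At the lowest SDLN level, 72.5, 227 and 175 counts would have been found in skin. Among the 3649 genes averaging 30 to 100 CPM in SDLN, 1048 likewise stayed at the floor in each skin library. Because β3 is abundant on platelets, their markers were examined. The list of 10 summed to 169, 132 and 192 CPM in skin, nearly all of it Pf4, the only platelet marker over the floor there. In SDLN it summed to 1.06, 0.824 and 0.614 CPM, with 4, 5 and 3 markers over the floor, of which Gp1ba had 38, 24 and 17 counts. Ppbp, Gp9 and Tubb1 were at 0 in all 6 libraries. Their part in the Itgb3 level was not tested.

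The laminin receptor chain α6 and the collagen receptor chain α1 were each carried by 1 skin library. Itga6 (ENSMUSG00000027111, chr2:71745616-71858416, + strand) had 0, 2456 and 3 counts in skin, or 0, 209.2 and 0.3 CPM. It was at 119.5, 99.6 and 112.5 CPM in SDLN. The SDLN libraries were close to one another, while skin library B was above and the others were at the floor. The log2 fold change was -0.61 (SE 2.63, adjusted p 0.945 in edgeR), and without skin library B it was -8.99 (adjusted p 0.0188). With both remaining skin libraries at the floor, the latter fold depends on the prior count and its call was nearly fixed by the filter.

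Itga1 (ENSMUSG00000042284, chr13:114953096-115101964, - strand) had 0, 225 and 0 counts in skin. In SDLN it had 319, 159 and 37 counts. This is 19.2 CPM in skin library B against 2.7, 2.2 and 0.8 CPM in SDLN. Means were 6.39 ± 11.1 and 1.90 ± 1.01 CPM (log2 fold change 1.83, SE 2.08, adjusted p 0.656 in edgeR). Without skin library B the sign turned, to -9.56 with an adjusted p of 0.0236, a fit in which the skin group is at 0 and to which the same limit applies. At the lowest SDLN level only 2.94, 9.20 and 7.07 counts would be found in the skin libraries, so in skin library A this level would lie under the floor. In skin library B 3 of the 7 fibroblast markers were over the floor too, with 593 counts of Col3a1 there and 0 in the other skin libraries, and their part in this value was not tested. Itga1 also shares exon bases with Gm49395 on the same strand.

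**Figure D2:**
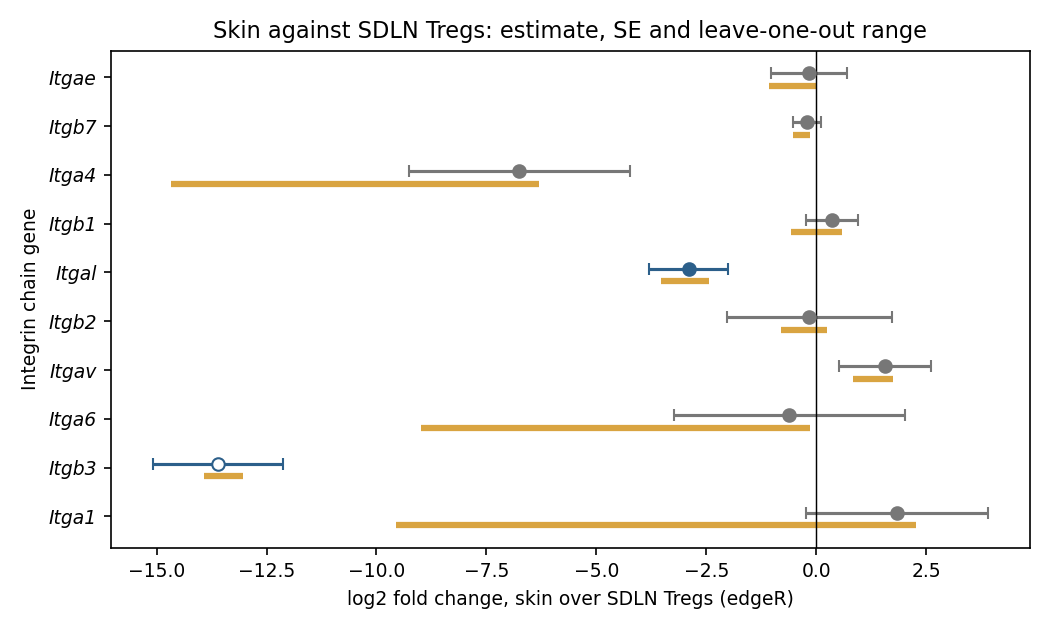
Log2 fold change, skin over SDLN, of each chain in edgeR (points) with 1 SE (thin bars) and the range when each library was left out in turn (thick bars below), blue for genes that passed the threshold and an open point where the skin group was at 0 and the estimate depends on the prior count. Itgal and Itgb3 stand to the left of 0, the range of Itga1 runs from -9.56 to 2.28, and Itgae, Itgb1 and Itgb2 have ranges that cross 0.

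Pairs of chains were then read together, since a receptor needs both. In SDLN Tregs both chains of all 9 receptors examined were over the floor in every library. In skin Tregs, αEβ7 and αVβ1 had both chains over the floor in all 3 libraries and αLβ2 in 2, skin libraries B and C. The pairs α4β7, α4β1, α6β1 and α1β1 had both in skin library B alone. αVβ8 had both there too, with 4 counts of Itgb8, and αVβ3 had both in 0 skin libraries. Skin library B had the largest total of the skin libraries. Presence of both transcripts does not show that they were in the same cell.

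Within the alpha chains, Itgal made a smaller share and Itgav a larger share in every skin library than in any SDLN library. Shares were taken within a library, per kb, so that library totals do not enter. Of the 6 alpha chains Itgal made 34.8, 2.02 and 27.9% in skin and 59.1, 58.6 and 54.0% in SDLN. Itgav made 13.6, 15.4 and 43.4% in skin and 3.88, 4.24 and 3.45% in SDLN. Neither chain's shares overlapped between the groups, nor did those of Itga4, at 0 to 0.105% in skin and 2.42 to 3.51% in SDLN. Itgae made 51.6, 61.7 and 28.7% in skin and 26.4, 27.9 and 29.0% in SDLN, so skin library C lay within the SDLN range. As a share of alpha chains it averaged 47.3 ± 16.9% in skin and 27.7 ± 1.31% in SDLN, while the test of its CPM did not pass. Because shares sum to a fixed whole, a lower share of one chain raises the others.

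Among the 4 beta chains Itgb7 made 50.9, 34.6 and 43.9% in skin and 49.6, 47.4 and 42.7% in SDLN. The averages were 43.1 ± 8.17% and 46.6 ± 3.53%. Itgb2 made 0.0104, 47.7 and 43.1% in skin and 30.6, 31.7 and 36.2% in SDLN. In skin library A, where Itgb2 was nearly missing, Itgb1 made 49.1%, against 17.7 and 13.0% in skin libraries B and C and 18.9, 19.6 and 20.5% in SDLN. Itgb3 made 0.619 to 1.28% in SDLN. Shares are given as a description, with no test.

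**Figure D3:**
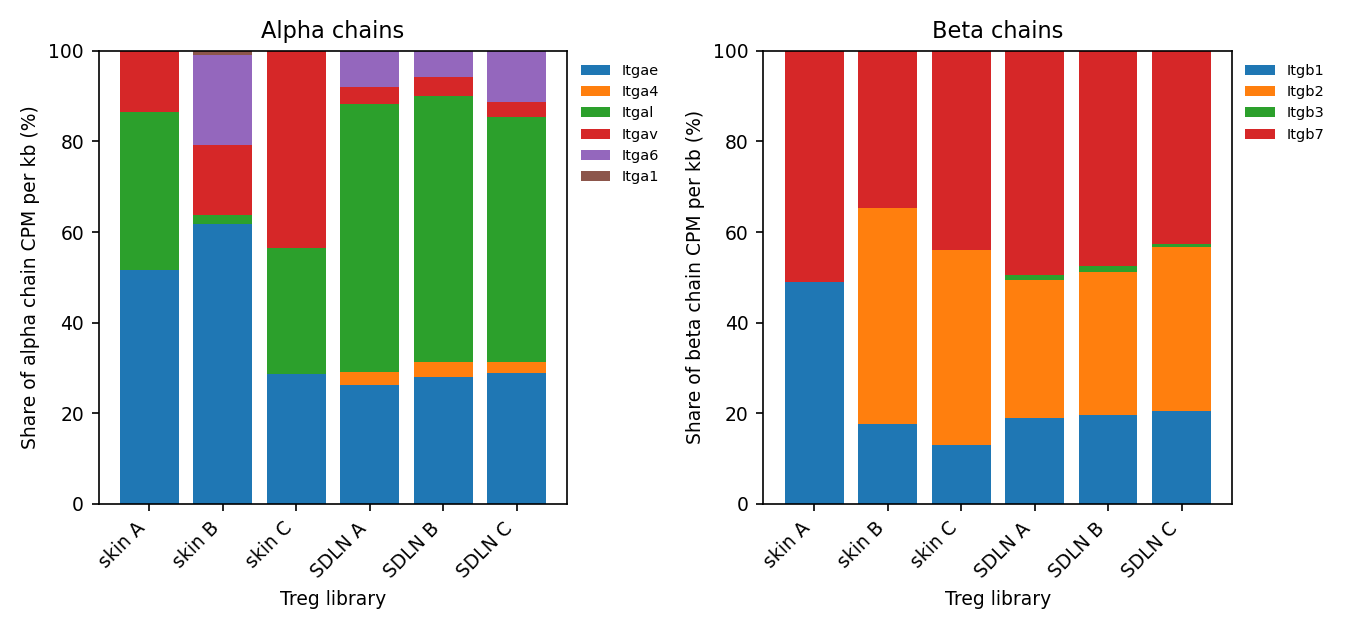
Shares (%) of the summed level per kb within each library, for the 6 alpha chains (left) and the 4 beta chains (right). Itgal is the largest alpha segment in each SDLN library and in no skin library, Itgav is wider in each skin library, and Itgb2 is all but missing from skin library A.

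In order of mean level per kb, SDLN Tregs ran from Itgb7 (300.3 CPM per kb) to Itgb2 (208), Itgb1 (125), Itgal (91.7), Itgae (43.8), Itga6 (12.2), Itgav (6.24), Itgb3 (6.17), Itga4 (4.77) and Itga1 (0.102). Mean ± SD ranges of neighbours overlapped for Itgb1 and Itgal, for Itgav and Itgb3 and for Itgb3 and Itga4. The order in skin was Itgb7 (282), Itgb1 (195), Itgb2 (166), Itgae (39.4), Itgav (16.7), Itgal (12.9), Itga6 (7.74), Itga1 (0.343), Itga4 (0.0406) and Itgb3 (0). There every pair of neighbours overlapped in this way. Itgal thus had rank 4 in SDLN and rank 6 in skin, but the skin order is not firm. The summed level of the 10 chains was 3238, 2784 and 1789 CPM in skin and 3312, 3474 and 2411 CPM in SDLN. The groups overlapped (2604 ± 741 and 3065 ± 573 CPM).

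The remaining 16 integrin chains were sparser. Of these, 10 could be tested, and 7 were higher in SDLN (45.3% of all genes tested were) and 0 in skin, with a median log2 fold change of -7.74. As 6 of the 7 were at the floor in every skin library, these calls were nearly fixed by the filter. By the rule for named genes these were led by Itgam, Itga9 and Itgb8. Itgb8, whose αVβ8 receptor activates latent TGF-β on Tregs, had 0, 4 and 1 counts in skin and 18.9, 35.8 and 9.5 CPM in SDLN. The groups did not overlap (log2 fold change -6.84, SE 1.22, adjusted p 0.00610 in edgeR). Only skin library B was over the floor, and barely. At the floor in 2 or 3 skin libraries, as Itgb8 was, were 84.5% of genes that averaged 10 to 30 CPM in SDLN. The call thus gives little support particular to Itgb8. Itga9, a chain of a tenascin receptor, was at 0 counts in all skin libraries and at 2.09 ± 0.684 CPM in SDLN (adjusted p 0.00526 in edgeR).

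Itgam, the αM chain typical of macrophages and neutrophils, was at 0 counts in every skin library and at 1.43 ± 0.397 CPM in SDLN (adjusted p 0.00486 in edgeR). Most of its exon bases are shared with Gm49368 on the same strand, so its counts are uncertain. Itgax, the αX chain of dendritic cells and macrophages, had 0, 990 and 0 counts in skin. Of the 18 myeloid markers, 17 were tested, and 15 were higher in skin and 1 higher in SDLN (1.04% and 45.3% of all genes tested were). The 2 most abundant, both needed for antigen presentation, were Cd74 (20958 ± 5103 against 422 ± 158 CPM) and H2-Ab1 (9870 ± 3216 against 56.7 ± 25.7 CPM). For 14 of the 17 tested markers every skin library lay above every SDLN library, against 2.39% of all genes tested. This did not hold for the 2 integrin chains of the list. Nor did it hold for Adgre1, with 1 count in skin library C, or Cd14, with 0 counts in skin libraries A and C. Itga7, a laminin receptor chain of muscle, had 2543, 0 and 0 counts in skin, which is 678.4 CPM in skin library A against 8.6 to 23.4 CPM in SDLN. Its log2 fold change of 3.18 (adjusted p 0.628 in edgeR) turned to -12.83 without skin library A (adjusted p 0.00698). That of Itgax turned from 6.23 (adjusted p 0.267) to -7.29 without skin library B (adjusted p 0.329). In both cases the remaining skin libraries are at 0, and the limit given for Itga6 applies. Both genes were chosen for mention after their values were seen.

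Integrins bind ligand only after proteins inside the cell switch them on. Of 17 tested activation genes, 0 were higher in skin and 1 was higher in SDLN, against 1.04% and 45.3% of all genes tested, with a median log2 fold change of 0.13. This was Dok1, an adaptor that competes with talin for beta chain tails, at 0 counts in all skin libraries and at 55.2, 47.6 and 40.6 CPM in SDLN. The SDLN mean was at least 59.8-fold higher (adjusted p 0.00520 in edgeR), and like Itgb3 the gene entered the test through SDLN alone. Rap1b, a small GTPase that drives integrin activation, was at 408.4, 897.5 and 2810 CPM in skin and at 246.6, 174.9 and 320.9 CPM in SDLN. Every skin library was above every SDLN library, yet at a log2 fold change of 2.66 (SE 0.97) edgeR gave an adjusted p of 0.0752. Tln1, which encodes the talin that opens the receptor, had 0, 9055 and 1224 counts in skin, and Fermt3, which encodes the kindlin of blood cells, had 952, 4323 and 4. Each was thus at or near the floor in 1 skin library, a different one for each gene. Tln1, Fermt3 and Rap1b were named after their values were seen.

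Downstream of ligand binding, 7 of 16 tested adhesion signalling genes were higher in SDLN, a share near the 45.3% of all genes tested, and 0 were higher in skin. The median log2 fold change was -2.10, and 6 of the 7 were at the floor in every skin library. The 3 with the smallest adjusted p were Bcar1 (0.00322), Ptk2 (0.00344) and Src (0.00378) in edgeR. They encode a docking protein and the kinases FAK and Src, and were low in SDLN too, at 5.51 ± 1.47, 3.64 ± 0.787 and 6.21 ± 3.31 CPM. In skin they had 0 counts, but for 1 count of Src in skin library C, so all 3 entered the test through SDLN alone and their small p-values give no support particular to them.

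Of 26 integrin ligand genes, 1, 6 and 5 were over the floor in skin and 11, 16 and 14 in SDLN. Of these genes 10 could be tested, and 5 were higher in SDLN, near the 45.3% of all genes tested, and 0 in skin (median log2 fold change -3.06). At the floor in every skin library were 3 of the 5, Icam2 and Lama5 among them. The calls of these 3 were nearly fixed by the filter and give no support particular to them. The summed level was higher in skin (502, 321 and 493 against 148, 184 and 123 CPM), but it was carried by few members, since Icam1 made nearly all of it in skin library A and Lamc1, at 0 counts in the other skin libraries, made 400.7 CPM of it in skin library C. Icam1, a ligand of LFA-1 named like Lamc1 after its values were seen, was at 501.5, 229.2 and 89.2 CPM in skin and 48.4, 69.9 and 30.2 CPM in SDLN. Its groups did not overlap, but it did not pass (log2 fold change 2.26, SE 0.96, adjusted p 0.117 in edgeR). Icam2, also bound by LFA-1, was at 0 counts in all skin libraries and at 50.5, 39.8 and 33.9 CPM in SDLN. The SDLN mean was at least 51.7-fold higher (adjusted p 0.00435 in edgeR). Lama5, a laminin chain, was at 0 counts in skin and at 1.19 ± 0.364 CPM in SDLN (adjusted p 0.00502 in edgeR). Tgfb1, the latent cytokine that αV receptors release, had only 1, 7 and 10 counts in skin, the first of them under the floor. It averaged 0.657 ± 0.423 CPM in skin against 6.39 ± 3.72 in SDLN. Its groups did not overlap (log2 fold change -3.07, SE 0.77, adjusted p 0.0196 in edgeR).

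**Figure D4:**
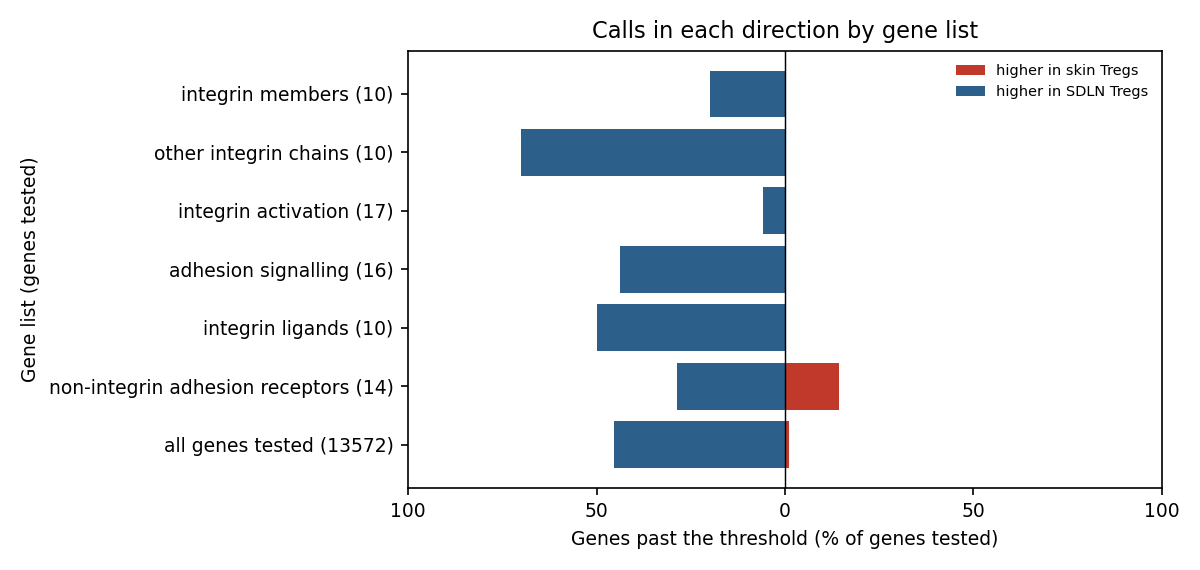
Share of tested genes (%) that were higher in skin Tregs (right, red) or in SDLN Tregs (left, blue) in edgeR at an adjusted p under 0.05, for the 10 integrin chains, the related gene lists and all genes tested (numbers tested in brackets). Only the non-integrin adhesion receptors (2 of 14) and the set of all genes (1.04%) have calls toward skin.

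Markers of other cells in these tissues were also counted. Keratinocytes, fibroblasts and endothelial cells lack CD45 and should be removed by the beads and the gate, and B cells, mast cells, CD8 T, NK and gamma delta T cells by the gate on CD4 and Foxp3-EGFP. The counts below stand against 1.04% of all genes tested higher in skin and 45.3% higher in SDLN, and every gene of these lists called higher in SDLN was at the floor in all skin libraries, where the filter nearly fixes the call. B cell markers summed to at most 2.66 CPM in skin against 59.1 to 95.2 CPM in SDLN (0 of 6 tested higher in skin, 5 higher in SDLN). Gamma delta T cell markers were at the floor in skin but for Trdc, at 116.7 CPM in skin library C (0 and 5 of 6). Of CD8 T and NK markers 1 of 5 was higher in skin, Nkg7, and 3 in SDLN, while Klrd1 had 958 counts in skin library A alone. Among mast cell markers 0 of 2 were higher in skin and 1 in SDLN, but untested Cma1 had 811 counts in skin library A. Keratinocyte markers (0 and 2 of 2) summed to at most 0.0852 CPM in skin, with Krt5 and Krt14 at 0 in all 6 libraries. Fibroblast markers (0 and 1 of 3) summed to 0, 90.6 and 0.775 CPM in skin, and endothelial markers (0 and 0 of 1) to 25.9, 0.511 and 5.31 CPM, against 173, 173 and 139 CPM in SDLN, where nearly all of it was Pecam1. Of 10 platelet markers only Pf4 could be tested, and it was higher in skin. Whether any of these cells carried part of the integrin mRNA was not tested.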

How the data were processed

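Bulk RNA-seq was carried out by the authors on 3 skin and 3 SDLN Treg samples. The authors deposited counts for each Ensembl gene identifier, not normalized. Per the study's methods and the submitters' processing notes, reads were trimmed with Trimmomatic 0.36, mapped to GRCm38 with STAR 2.5.2b and counted over exons with featureCounts of Subread 1.5.2. The annotation release and strand setting are not given in the sources used here.

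Symbols and exon lengths came from GENCODE M21 (GRCm38), which named 48970 of 49315 genes, and 24401 genes were at 0 in every library. CPM was computed from library totals of 3748669 to 116158706 counts, and CPM per kb used merged exon length. Tests used edgeR 4.0.16 in R 4.3.3 (filterByExpr, TMM, robust quasi-likelihood fit, tissue as the only term, Benjamini-Hochberg over 13572 genes, threshold 0.05), and the common dispersion was 2.04. SEs were derived from the F statistic. The script was tested on simulated data. The study's methods state no test for these samples. Groups came from sample titles, and no 2 libraries were identical.

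Alternatives were DESeq2 size factors in edgeR, TMMwsp, library size only, DESeq2 1.42.0, limma 3.58.1 voom with quality weights, no low-count filter, 10 or more counts required everywhere, no robust fit, and each library left out. The members, gene lists and tests were chosen with earlier results of these data known. Named were all 10 members, the genes of each pathway list past the threshold (up to 3 in each direction by smallest adjusted p), and the 2 most abundant genes of marker lists where the text needs them. Promoter sequences are from RefSeq (GRCm38.p6). Pairs of chains are receptors known from the literature. The values of 1 gene that the rule names are not reported here.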

Additional observations from a re-analysis of the deposited data

How the results depend on the processing

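No paired analysis was possible because table columns carry letters, the labels carry numbers, and nothing links the letters of one tissue to those of the other. No integrin chain was higher in skin under any of the 14 alternatives. The 2 chains higher in SDLN became 1 under DESeq2 size factors, library size only and no filter (Itgb3 each time) and 1 (Itgal) where 10 counts were required everywhere, with 5 chains left to test. They were 3 in DESeq2 (Itga4, Itgal and Itgb3) and 3 in limma voom (Itga4, Itga6 and Itgb3, with Itgal lost). With 1 library left out they were 1 to 5, with 5 without skin library B. Genes of the whole table higher in SDLN numbered 5717 under DESeq2 size factors, 6163 under library size only and 6376 with no filter. They numbered 7102 in DESeq2, 7192 in limma voom and 4983 to 7787 with 1 library left out (7787 without skin library B). Over all genes, 141 were higher in skin, against 457 under DESeq2 size factors, 382 in DESeq2, 77 with no filter, 81 with the minimum of 10 counts and 71 to 324 with 1 library left out (324 without skin library A, and 71, 77 and 81 without SDLN libraries A, B and C in turn). Of 6142 higher in SDLN, the minimum of 10 counts gave 9 calls among 1396 genes tested, since genes missing from a skin library are left out. That minimum put 90% of calls toward skin, against 2.24% in the fit reported. DESeq2 size factors moved the median log2 fold change of 1623 genes over the floor everywhere by 1.49, and under them the signs turned for Itgae (1.19), Itgb7 (1.35), Itgb2 (1.12) and Itga6 (0.50), all below that shift. Limma voom turned Itgb1 (-0.15), Itga1 (-2.72) and Itga7 (-5.02). With 1 library left out, log2 fold changes ran from -1.08 to 0.017 for Itgae, -0.57 to 0.60 for Itgb1, -0.80 to 0.25 for Itgb2, -9.56 to 2.28 for Itga1, -12.83 to 3.74 for Itga7 and -7.29 to 6.65 for Itgax. The cause of these changes was not tested. Itgal was called in 6 of 14 alternatives (adjusted p 0.00509 to 0.424), Itga4 in 3 of 13 (0.000509 to 0.168) and Itga6 in 2 of 13. Shares taken without length normalization kept Itgal as the largest alpha chain in SDLN (56.9%), but in skin made Itgav the largest (36.2%, against 24.1% per kb) in place of Itgae (32.8%, against 47.3% per kb), and 9 of 20 mean shares moved by more than 1 SD. In skin library A a level under 0.800 CPM could not be told from 0.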

Other observations

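Adhesion receptors outside the integrin family included the calls toward skin. Of 14 such genes, all tested, 2 were higher in skin and 4 in SDLN (1.04% and 45.3% of all genes tested were), with a median log2 fold change of -0.51. Sdc4, a heparan sulfate proteoglycan that acts beside integrins at matrix contacts, was at 698.6, 361.9 and 822.3 CPM in skin and at 35.9, 19.1 and 53.1 CPM in SDLN. Every skin library was above every SDLN library (628 ± 238 against 36.0 ± 17.0 CPM, log2 fold change 4.10, SE 0.79, adjusted p 0.00769 in edgeR). Cd47, the "do not eat me" surface protein that also associates with β3 integrins, was at 1998, 1191 and 1261 CPM in skin and at 672.0, 583.0 and 594.5 CPM in SDLN, with edgeR giving a log2 fold change of 1.19 (SE 0.27, adjusted p 0.0132). Cd44, the hyaluronan receptor, did not overlap between the groups either, at 530 ± 252 and 214 ± 80.5 CPM, but its adjusted p was 0.126 in edgeR. Sdc4 and Cd47 are made by many cell types, and myeloid markers, at 34722 to 60966 CPM in skin, were high in the same libraries, although the gate on CD4 and Foxp3-EGFP should remove most myeloid cells. Their part in these values was not tested.

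Among the genes higher in SDLN, Cd226 and Cd96, which bind the same nectin family ligand, were both at 0 counts in all skin libraries and at 35.7 ± 6.61 and 216 ± 16.7 CPM in SDLN, at least 44.7-fold and 270.2-fold higher (adjusted p 0.00363 and 0.00747 in edgeR). All 4 genes higher in SDLN were at the floor in every skin library, as were 5878 tested genes of which 5801 were called, so these calls were nearly fixed by the filter. Dag1, the dystroglycan that binds laminin, had 2 counts in skin library C and 0 in the other skin libraries, against 19.2 ± 3.32 CPM in SDLN (adjusted p 0.00728 in edgeR). Cd2, which binds Cd48, was among the steadiest, at 1338 to 1593 CPM in skin and 1298 to 1925 CPM in SDLN, with edgeR giving a log2 fold change of -0.14 (SE 0.32, adjusted p 0.876). Cd44, Cd96 and Cd2 were named after their values were seen.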
